A study of Mus musculus with 8 samples.

Results

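Layer 5 near-projecting (L5NP) neurons were examined by single-nucleus RNA-seq of mouse primary visual cortex (V1) at postnatal day 21, by taking every nucleus that the authors' cell table assigned to the L5NP type. They numbered 1660 of 102330 nuclei and were 1 of 8 types among 69372 excitatory nuclei. All mice were GR fl/fl, that is, they carried loxP sites around Nr3c1, the gene of the glucocorticoid receptor (GR), and all received an AAV2/5 vector at birth with the astrocyte promoter GfaABC1D and an EGFP-CAAX reporter. In GR-KO mice this vector encoded Cre and in GR-Con mice the truncated form ΔCre, so that the deletion was aimed at astrocytes and not at the neurons described here. Rearing was either normal (NR) or without light (DR). There were 2 animals per group, and the library names of the cell table gave 1 male and 1 female library for each genotype in each rearing. A group of 2 animals of different sex limits what a difference between groups can show.

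The L5NP nuclei per library numbered between 99 (NR GR-KO female) and 263 (DR GR-Con female), with 2535604 to 5401455 unique molecular identifiers (UMIs, counts of captured RNA molecules) in total. The median nucleus had 13552 to 27093 UMIs, the highest value again in NR GR-KO female, and 3819 to 5457 genes. L5NP neurons made up 1.04% (95% Wilson interval 0.855 to 1.26) to 1.90% (1.69 to 2.15) of the nuclei of a library. This share differed by a log2 ratio of -0.00074 between DR and NR (edgeR quasi-likelihood test over 20 cell types, adjusted p 0.997) and of -0.23 between GR-KO and GR-Con (adjusted p 0.944), neither of which passed the test. The NR GR-Con male, NR GR-KO male and DR GR-Con female libraries held 2, 4 and 4 microglia nuclei, against 573 to 948 in the other 5 libraries. NR GR-KO female held 59 layer 5 pyramidal tract (L5PT) nuclei, against 384 to 504 in the others. A barcode shared with another library was carried by 49 L5NP nuclei (2.95%).

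Near-projecting neurons are glutamatergic cells of layer 5 whose axons stay close to the cell body, unlike those of pyramidal tract (L5PT) neurons, which leave the cortex, and of intratelencephalic (L5IT) neurons, which reach other cortical areas. They are marked by the transcription factor gene Tshz2 and share deep-layer genes such as Fezf2, Tle4 and Bcl11b with corticofugal cells. Dark rearing withholds the visual input that drives activity-dependent transcription and the late maturation of V1 circuits, and glucocorticoid receptors are ligand-activated transcription factors that respond to circulating steroid hormones.

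The L5NP nuclei held the 2 markers given with their label. This is a description, because the nuclei were typed from these same counts. Tshz2 stood at 3106 to 4147 CPM over the 4 NR and 4 DR libraries, with a mean of 3596 ± 348 (SD, n = 8). CPM are UMIs of a gene scaled to the UMI total of the nuclei of the given cell type in a library. The next excitatory type, L2/3, had 102 CPM. A Tshz2 UMI was found in 1659 of 1660 L5NP nuclei, with a median of 60 UMIs per nucleus. The share of nuclei with one was 9.33% in L5IT and 29.6% in L5PT. The median depth of these types was greater, at 22868 and 29199 UMIs against 16464.5 UMIs in L5NP. Sla2, which encodes an adaptor protein of immune receptor signalling, was far less abundant in counts, at 9.79 ± 3.49 CPM, but no other excitatory type exceeded 0.551 CPM. Its UMIs were found in 15.5% of L5NP nuclei, and in 5.11% after each nucleus was thinned to 5000 UMIs.

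Other L5NP markers chosen from general knowledge did not all single out these neurons. Slc17a8, the gene of the vesicular glutamate transporter VGLUT3, was at 147 ± 16.05 CPM. Trhr, the receptor of thyrotropin-releasing hormone, was at 64.8 CPM and Vwc2l at 1219 CPM, both higher in L5NP than in any other excitatory type. Lypd1, which encodes a modulator of nicotinic receptors, was at 230.0 ± 49.2 CPM with L2/3 next at 45.3 CPM. Met, a receptor tyrosine kinase gene, was higher in L6IT (50.4 CPM) than in L5NP (41.1 CPM), and Cpne7, a calcium-binding copine gene, was higher in L5PT (57.7 against 20.2 CPM). Of the markers of the other excitatory types, only Etv1, listed for L5IT, was higher in L5NP (603 CPM) than in its own type (273 CPM). Foxp2, listed for L6 corticothalamic neurons, was at 255 CPM in L5NP against 1237 CPM there. A UMI of Slc17a8 and one of Slc17a7, the main vesicular glutamate transporter gene of cortex, occurred together in 932 L5NP nuclei. Gad1 and Gad2, which mark inhibitory neurons, occurred together in 5.

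Of 5784 genes with at least 20 CPM in L5NP, 1971 were higher there than in each of the other 7 excitatory types, 138 by at least 2-fold, 39 by at least 4-fold and 18 by at least 10-fold. The 15 with the greatest ratio to the next excitatory type were led by Hmga2, a chromatin architectural factor best known from embryonic tissue, at 61.3 ± 17.8 CPM against 0.160 CPM in L6b, a 384-fold ratio. Lcp1, an actin-bundling protein gene, followed at 70.3-fold and Myzap at 65.7-fold. Nxph1, a secreted neurexin ligand, was 60.1-fold above the next excitatory type at 3135 CPM, although Pvalb, Sst and Lamp5 interneurons had 3145, 3511 and 3461 CPM. Kcnip1, a subunit that modulates A-type potassium channels, was likewise higher in the 4 interneuron classes, and Prkcq was higher in oligodendrocytes (313 against 42.2 CPM). Htr2c, the serotonin 2C receptor, varied most among L5NP libraries (85.2 to 295 CPM). Because the nuclei were typed from these same counts, the ratios are a description and were not tested. The plot of leading genes by excitatory type shows how low the other types lie.

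**Figure D1:**
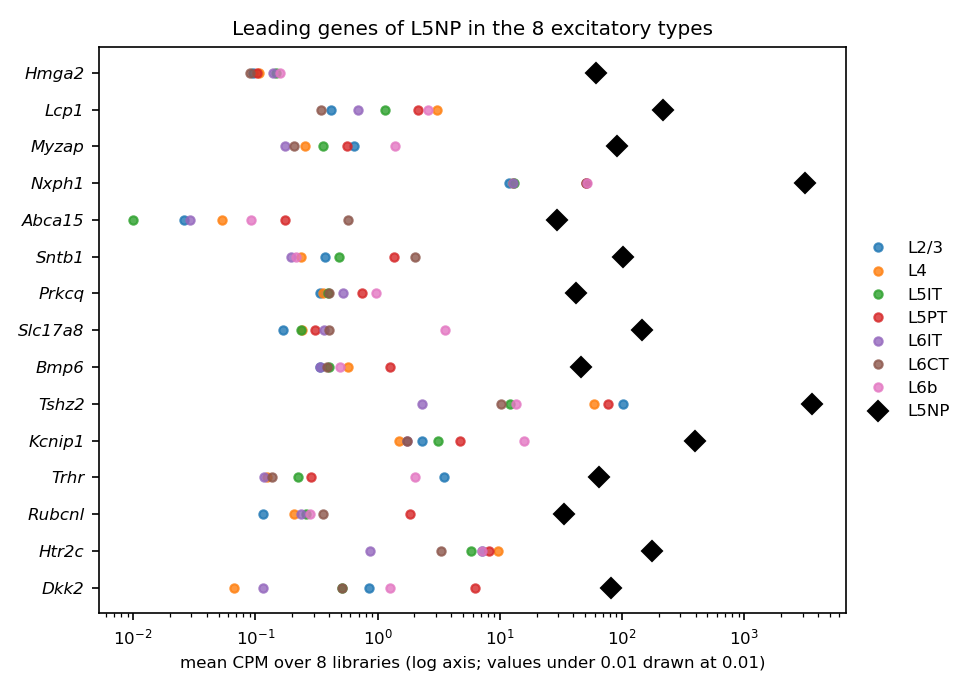
Mean level (CPM, log scale) of the 15 genes with the greatest ratio of L5NP to the next excitatory type, in each of the 8 excitatory types over 8 libraries. L5NP lies above the other excitatory types for all 15 genes, from a 384-fold ratio for Hmga2 to a 13.0-fold ratio for Dkk2.

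The vector features had UMIs in few of these nuclei. No Cre UMI was found in the 957 L5NP nuclei of GR-Con mice, which allows a share of nuclei with a UMI of up to 0.313% (3 counts of the total), and 9 of 703 nuclei had one in GR-KO mice (1.28%, exact 95% interval 0.587 to 2.42). Of these, 7 were in NR GR-KO male, and without that library, a choice made after seeing the data, the share was 2 of 475 nuclei (0.421%). Oligodendrocytes and their precursors, which serve as a background, had a Cre UMI in 0.150% of nuclei at a median depth of 8175 UMIs, against 16710 UMIs in GR-KO L5NP nuclei. EGFP UMIs were found in 0 of 957 and 3 of 703 L5NP nuclei. The delCre feature, that of the GR-Con vector, had a UMI in 0 of 957 nuclei of GR-Con and in 4 of 703 of GR-KO mice, all 4 in NR GR-KO male. The intervals cover counting error only. Nr3c1 in L5NP nuclei was at 187, 189, 207 and 176 CPM in NR and at 200.2, 159, 187 and 208 CPM in DR (GR-Con male, GR-Con female, GR-KO male and GR-KO female in both), with overlap between the genotypes.

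The effect of dark rearing was asked first over both genotypes, 4 DR libraries against 4 NR libraries with genotype as a term. Among the genes that rose in DR were the adhesion gene Igsf21, the guidance gene Sema5a and 5 ionotropic glutamate receptor genes. Sqle and Pcyt2, enzymes of lipid synthesis, the muscarinic receptor gene Chrm3 and 3 genes of an immediate early list were among those that fell. Of 11981 genes tested, 292 (2.44%) were called by the likelihood ratio test of edgeR at an adjusted p under 0.05, 141 (1.18%) higher and 151 (1.26%) lower in DR. The stricter quasi-likelihood test called 107 (0.893%), all among the 292, of which 61 (0.509%) were higher and 46 (0.384%) lower, and 127 calls were made by DESeq2. An unadjusted p under 0.05 was found for 1652 of the 11981 genes. Most changes were moderate, with a median size of 0.60 on the log2 scale among called genes, and 50 changed at least 2-fold. The 4 DR libraries lay clear of the 4 NR libraries in 217 of the called genes and in 8.33% of all genes tested. Without NR GR-Con male the number of calls was 114.

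Igsf21, which encodes a synaptic adhesion protein of the immunoglobulin superfamily that binds neurexin, had the smallest p. It stood at 31.0, 43.6, 38.1 and 38.7 CPM in NR GR-Con male, NR GR-Con female, NR GR-KO male and NR GR-KO female, and at 73.3, 70.2, 132 and 78.4 CPM in the DR libraries in the same order, which is kept in the lists of values that follow. Every DR library lay above every NR library, with DR GR-KO male well above the rest. The log2 fold change was 1.21 (SE 0.17; edgeR likelihood ratio test, adjusted p 8.7e-09; quasi-likelihood test, adjusted p 0.0073). Igsf21 lies on chromosome 4 at 140026846 to 140246784, minus strand (GRCm38, as all coordinates here).

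Sema5a, a transmembrane semaphorin that guides axons and restrains synapse formation, was at 129, 120.2, 115 and 109 CPM in NR and at 239, 205, 156 and 193 CPM in DR. The groups did not overlap, and both DR GR-Con libraries were the highest. Its log2 fold change was 0.76 (SE 0.11; edgeR likelihood ratio test, adjusted p 5.0e-08). The gene lies on chromosome 15 at 32244810 to 32696341, plus strand.

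The windows of 250 bases before the RefSeq transcription starts of Igsf21 and Sema5a, the leading genes in the higher direction, and of Npas4, an immediate early gene described further on, are printed here because the activity-regulated factors Egr1 and CREB act at promoters. Capitals mark matches on either strand to the Egr motif GCGNGGGCG (Igsf21 and Sema5a) or to TGACG, the short form of the cAMP response element (Npas4). Sequences are from RefSeq on GRCm38.p6, 5′ to 3′ along the strand of each gene: chr4:140246812-140247061 (minus strand), chr15:32244563-32244812 (plus strand) and chr19:4989972-4990221 (minus strand). Gene coordinates here are those of GENCODE, whose starts differ from those of RefSeq, so the windows do not end exactly at them.
Igsf21: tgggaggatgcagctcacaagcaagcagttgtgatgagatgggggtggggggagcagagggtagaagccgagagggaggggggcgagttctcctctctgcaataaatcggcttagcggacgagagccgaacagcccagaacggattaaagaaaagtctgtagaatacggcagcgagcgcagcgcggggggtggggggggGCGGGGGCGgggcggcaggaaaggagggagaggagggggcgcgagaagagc
Sema5a: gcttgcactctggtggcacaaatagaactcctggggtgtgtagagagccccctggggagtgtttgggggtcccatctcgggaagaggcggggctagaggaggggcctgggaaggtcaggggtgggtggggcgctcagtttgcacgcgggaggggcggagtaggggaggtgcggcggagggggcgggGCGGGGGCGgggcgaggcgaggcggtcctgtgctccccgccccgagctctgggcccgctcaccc
Npas4: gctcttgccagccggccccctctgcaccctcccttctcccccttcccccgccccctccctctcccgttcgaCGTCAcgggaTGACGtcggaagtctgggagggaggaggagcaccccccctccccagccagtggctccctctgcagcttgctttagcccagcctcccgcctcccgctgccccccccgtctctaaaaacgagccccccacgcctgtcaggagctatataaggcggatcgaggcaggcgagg
The Igsf21 and Sema5a windows each held 1 match to GCGNGGGCG, which occurs in 4.70% of 32851 such windows, and none to TGACG. The Npas4 window held 2 matches to TGACG, 1 on each strand, a string found in 17.8% of windows. None of the 3 windows matched the full element TGACGTCA, which contains TGACG, or the AP-1 motif TGANTCA (1.55% and 6.75% of windows). The window of Jund, which is on the same gene list as Npas4, matched none of the 4 motifs. The matches describe the letters in these windows only. Sqle and Pcyt2 are named only.

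Other genes that encode adhesion proteins were called in DR. Sdk1, a homophilic adhesion protein of layer-specific synapses, was at 204, 217, 199 and 154 CPM in NR and at 303, 299.5, 286 and 269 CPM in DR (log2 fold change 0.60, SE 0.099; edgeR adjusted p 2.8e-06), with no overlap. Cntnap4, a contactin-associated protein, was at 36.4 ± 10.2 CPM in NR and 69.9 ± 14.4 CPM in DR (0.93, edgeR adjusted p 1.5e-04), and Nrxn2, a presynaptic neurexin, at 88.0 ± 6.04 and 112 ± 10.8 CPM (0.36, edgeR adjusted p 0.016), which 4 of 8 fits without a library kept. These were the 2 members called, both higher, of 30 synaptic adhesion genes tested, where 2.44% of all genes were called and 1.18% were higher. No further member had an unadjusted p under 0.05. The list had a median log2 change of 0.04 beside -0.0042 over all genes tested. Among 18 cadherins tested, Pcdh15 rose by 0.52 and Cdh9, a classical cadherin, fell by 1.24 on the log2 scale (14.4 ± 3.504 to 6.08 ± 1.04 CPM). Col5a1, a fibrillar collagen gene (19.6 ± 8.71 to 46.2 ± 10.2 CPM, log2 fold change 1.23), and Xylt1, the enzyme that starts glycosaminoglycan chains on proteoglycans (275 ± 27.0 to 387 ± 16.3 CPM, 0.51), were also higher in DR.

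Of 25 axon guidance genes tested, 2 were called (2.44% over all genes) and 7 had an unadjusted p under 0.05. Sema5a was higher, Unc5d, a netrin receptor, was lower (log2 fold change -0.35, edgeR adjusted p 0.0499, called in 2 of 8 fits without a library), and the median was 0.02. Epha3, Gap43 and Robo1, which the study names within an axonal program raised in neurons by astrocyte GR-KO, had log2 changes of -0.24, 0.16 and 0.10. None passed the test, adjusted or unadjusted. The study plots its axonal wiring genes for L5IT neurons. These 3 genes were chosen by the study on these samples and are not independent evidence.

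Of the ionotropic glutamate receptor genes, all 15 on the list could be tested, 5 were called higher and none lower, beside 1.18% and 1.26% of all genes, and the median was 0.15. The lists of genes were chosen with earlier results of these data known, so this count is not independent evidence. Values of the called members in other types are given below. Grik4, a high-affinity kainate receptor subunit, was at 113, 113, 160.5 and 105 CPM in NR and at 257, 208, 227 and 163 CPM in DR (log2 fold change 0.81, SE 0.15; edgeR adjusted p 8.0e-05). Its groups came close to each other, NR GR-KO male having the highest NR value and DR GR-KO female the lowest DR value. Grik3, a further kainate subunit, was at 538, 695, 590.1 and 575 CPM in NR and at 812, 829, 827 and 842 CPM in DR (0.48, SE 0.099; edgeR adjusted p 4.4e-04), without overlap. Grid1, the delta receptor subunit that binds cerebellins at synapses, rose by 0.33 (edgeR adjusted p 0.0081). Gria1, an AMPA receptor subunit, also rose by 0.33 (edgeR adjusted p 0.024) and Grik5, another kainate subunit, by 0.34 (edgeR adjusted p 0.038). Of these, Grik5 missed the quasi-likelihood test (adjusted p 0.065) and held in 1 of 8 fits without a library, and Gria1 held in 3 of 8. NMDA receptor subunits lay between 0.06 (Grin1) and 0.24 (Grin3a) and were not called.

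Of 11 GABA-A receptor subunits tested, none was called, 5 had an unadjusted p under 0.05 and the median was -0.16. Potassium channel genes had 3 of 30 members called, all higher (1.18% over all genes), and 12 had an unadjusted p under 0.05. Kcnn3, a small-conductance calcium-activated channel, was at 23.1 ± 5.76 CPM in NR and 36.1 ± 2.25 CPM in DR (0.63, edgeR adjusted p 0.0043; quasi-likelihood test, adjusted p 0.054). Kcnip1 rose by 0.41, and Kcnq3, a subunit of the M-current, by 0.28, a call that none of the 8 fits without a library kept. No sodium, calcium or HCN channel gene of 21 tested was called, with 6 at an unadjusted p under 0.05 (median 0.02).

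Sqle, squalene epoxidase of the cholesterol pathway, was at 29.5, 23.8, 29.2 and 16.7 CPM in NR and at 16.1, 6.67, 9.86 and 9.07 CPM in DR (log2 fold change -1.25, SE 0.25; edgeR adjusted p 1.9e-04). The highest DR library, GR-Con male, came within 1 CPM of the lowest NR library, GR-KO female. Pcyt2, which makes the activated head group for phosphatidylethanolamine, was at 66.5, 63.7, 81.5 and 74.5 CPM in NR and at 45.8, 42.2, 48.5 and 41.5 CPM in DR (-0.66, SE 0.11; edgeR adjusted p 8.1e-07), a clear separation. Osbpl3, an oxysterol-binding protein of membrane contact sites, fell by 1.12 on the log2 scale (edgeR adjusted p 1.5e-04), although DR GR-KO male (118 CPM) lay above NR GR-KO female (112 CPM).

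Chrm3, the M3 muscarinic acetylcholine receptor that raises excitability through the Gq pathway, was at 94.0, 106, 80.7 and 97.2 CPM in NR and at 68.4, 49.2, 64.3 and 55.4 CPM in DR (log2 fold change -0.66, SE 0.13; edgeR adjusted p 2.1e-04), with no overlap. It was the only called member of 21 neuromodulator receptors tested, beside 2.44% of all genes, and 9 had an unadjusted p under 0.05 (median 0.10). On the nicotinic side Lypd1 was at 213, 194, 184 and 156 CPM in NR and at 262, 276, 258 and 291 CPM in DR (0.56, SE 0.11; edgeR adjusted p 7.7e-05), also with no overlap. It was the only called gene of the 8 L5NP markers. Tshz2 had a log2 change of 0.23 (edgeR adjusted p 0.15). Among the 15 leading genes, Myzap (0.49), Abca15 (0.57) and Kcnip1 were called higher (1.18% over all genes), Kcnip1 by the quasi-likelihood test also. Markers of the other 7 excitatory types gave no calls in this comparison. Parm1, from the L5PT list, and Deptor, from the L5IT list, were each called higher within 1 genotype, as given below.

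**Figure D2:**
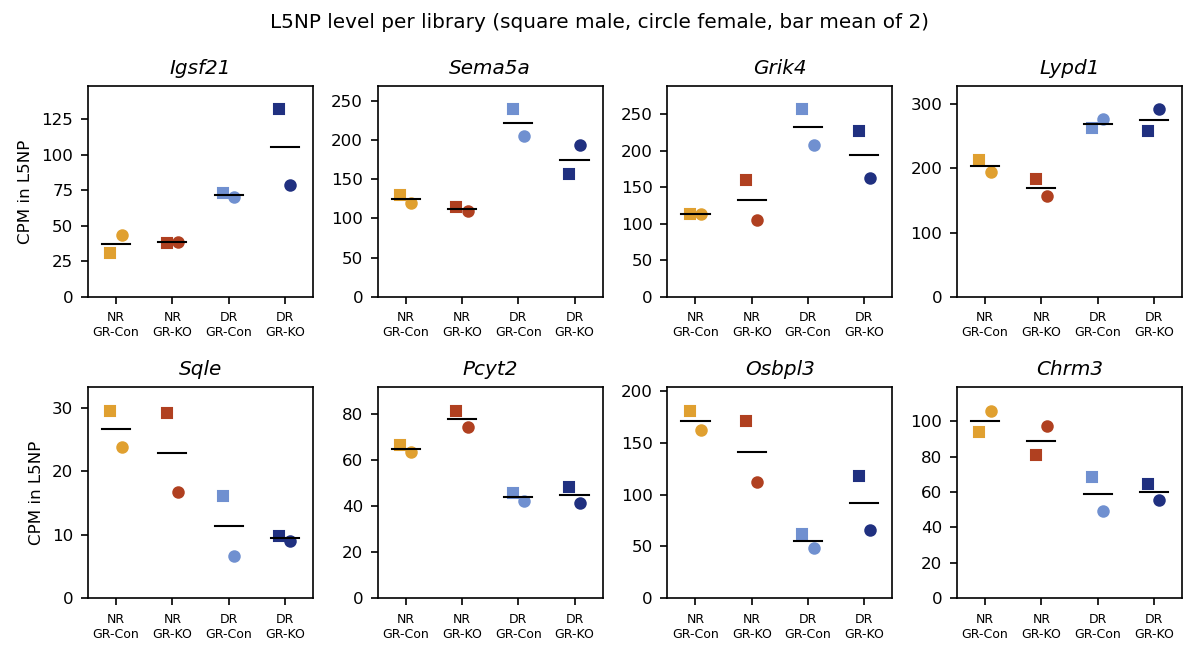
Level (CPM) of 8 genes in each of the 8 L5NP libraries, by rearing and genotype. Igsf21, Sema5a, Grik4 and Lypd1 were higher and Sqle, Pcyt2, Osbpl3 and Chrm3 lower in DR, with overlap between DR and NR only for Osbpl3.

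The other genes named by the rule had varied roles. Gas7, a gene of actin assembly and neurite growth, was at 369, 412, 458 and 345 CPM in NR and at 622, 512, 656 and 596 CPM in DR (log2 fold change 0.60, SE 0.11; edgeR adjusted p 4.9e-05). Caln1, a neuronal calcium-binding protein gene, was at 57.9, 58.4, 74.4 and 56.8 CPM in NR and at 92.6, 109, 105 and 85.5 CPM in DR (0.68, edgeR adjusted p 8.1e-06). Ski, a corepressor of TGF-beta signalling, rose from 75.4 ± 9.58 to 111 ± 5.73 CPM (0.57) and Zfp951, a zinc finger gene, from 17.6 ± 1.81 to 30.6 ± 1.82 CPM (0.83). In these 4 genes DR and NR did not overlap, and the spread within DR was smallest for Zfp951, at 28.0 to 32.3 CPM. The antisense gene Zmiz1os1 rose by 0.48. Brinp3, a neuronal gene of uncertain function, was at 169, 181, 137 and 132 CPM in NR and at 128, 76.6, 85.6 and 59.3 CPM in DR (-0.82, SE 0.15; edgeR adjusted p 5.9e-05), with DR GR-Con male close below the NR range. The gene models 9630014M24Rik and Gm5820 had changes of -1.21 and -1.20, the former from 73.1 to 94.96 CPM in NR to 19.4 to 54.4 CPM in DR. The calls of all 24 named genes held in each of the 8 fits without a library.

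Immediate early transcription factors are the first genes that neuronal activity switches on. Their list takes in related family members, and 8 of its 16 genes passed the filter on low counts. Like the other lists, it was chosen with earlier results of these data known, so its counts are not independent evidence. Nr4a1 and Nr4a3, nuclear receptor genes, were the most abundant of them, at 57.1 and 48.9 CPM over all libraries. Of the 8, 7 had negative changes, 3 were called lower (1.26% over all genes) and the median was -0.64, beside -0.0042 over all genes. Egr1 was at 8.97, 6.96, 21.5 and 10.6 CPM in NR and at 2.30, 5.55, 7.10 and 4.86 CPM in DR (log2 fold change -1.22, SE 0.30; edgeR adjusted p 0.0054), NR GR-Con female lying just below DR GR-KO male. Jund was at 11.0, 10.4, 13.8 and 12.8 CPM in NR and at 5.76, 5.92, 7.89 and 9.07 CPM in DR (-0.74, edgeR adjusted p 0.0075), with no overlap. Npas4, a factor specific to neurons that follows calcium influx, was at 4.05, 4.55, 8.69 and 6.03 CPM in NR and at 2.30, 2.59, 3.55 and 3.89 CPM in DR (-0.90, edgeR adjusted p 0.047). The 3 calls did not pass the quasi-likelihood test (adjusted p 0.057, 0.055 and 0.11), and that of Npas4 held in 1 of 8 fits without a library.

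A single library weighed on these factors. NR GR-KO male had the highest value in 6 of the 8 factors, with Junb at 22.3 CPM against 1.87 to 6.15 CPM in the other 7 libraries, and in 8 of the 15 activity-regulated effectors tested. None of these effectors, which include the growth factor gene Bdnf (-0.63), the dendritic RNA-binding protein gene Arc (-0.28) and the secretory peptide gene Vgf (-0.71), was called, 3 had an unadjusted p under 0.05 and the median was -0.20. The glucocorticoid receptor and its target genes gave no calls among 11 tested, with 4 at an unadjusted p under 0.05 (median -0.03). Fkbp5, a chaperone gene that GR induces, ranged from 15.7 to 50.0 CPM with no order by rearing (0.28, edgeR adjusted p 0.76).

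**Figure D3:**
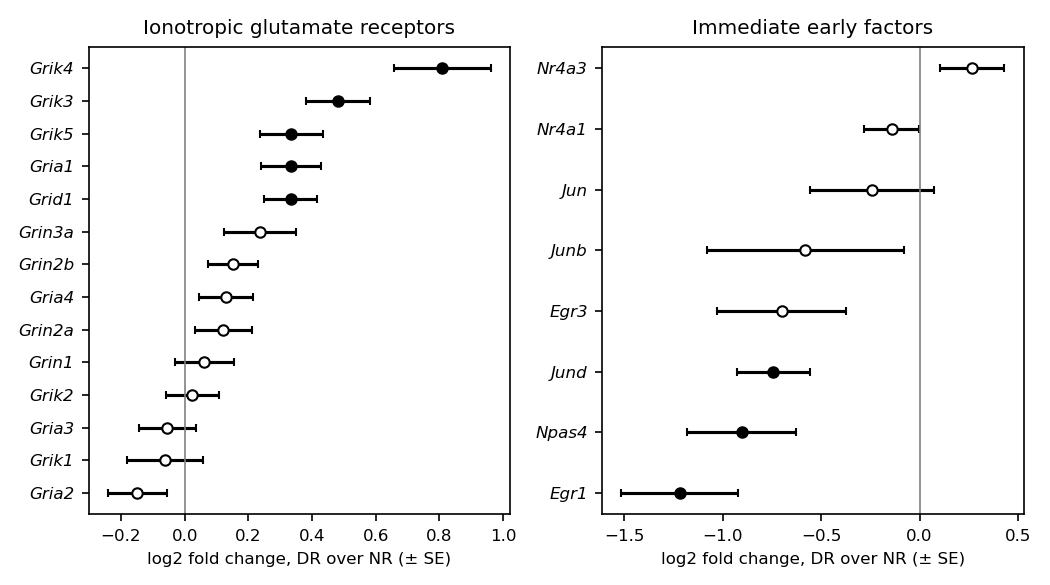
Log2 fold change of DR against NR (± SE) for ionotropic glutamate receptor genes (all but 1 of those tested) and the immediate early transcription factors tested in L5NP, over 4 DR and 4 NR libraries. Filled points had an adjusted p under 0.05, with 5 receptor genes filled to the right and 3 of 8 factors filled to the left. Both lists were chosen with earlier results of these data known.

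The genes named as lower in DR also held abundant transcripts of other roles, which belong to no list. Malat1, a nuclear non-coding RNA, was at 37963, 35347, 36752 and 40056 CPM in NR and at 29453, 29054, 26657 and 27074 CPM in DR (log2 fold change -0.40, SE 0.083; edgeR adjusted p 4.3e-04). Actb, cytoskeletal actin, fell by 0.67, Ubb, a ubiquitin gene, by 0.85, Cox8a, a subunit of respiratory complex IV, by 0.80 and Nrgn, a calmodulin-binding postsynaptic protein gene, by 0.58. Values that bear on RNA from other cells and on quality moved in part with rearing. The summed level of 7 inhibitory neuron markers in L5NP nuclei was 14.7 to 22.9 CPM in NR and 9.22 to 13.3 CPM in DR, and that of 3 mural cell markers 5.36 to 7.81 and 2.96 to 4.86 CPM, neither overlapping. Of these markers 3 and 1 could be tested and none was called, but 2 of the 3 and the mural marker had an unadjusted p under 0.05, with a median log2 change of -0.76 in both lists. The sum of 5 oligodendrocyte markers was 55.0 to 74.6 CPM in NR and 34.6 to 60.3 CPM in DR. Each marker list was detected in full: no list had a member at 0 in every library. The sums of astrocyte markers (1063 to 1153 against 1015 to 1193 CPM) and of microglia markers (13.5 to 15.04 against 12.4 to 14.2 CPM) overlapped, as did the median share of mitochondrial UMIs (0.00706% to 0.0111% against 0.00666% to 0.0134%) and the median depth. The astrocyte sum was mostly Slc1a2 (mean 1036 CPM in L5NP), so it cannot show a shift in rarer members such as Aqp4 (0.945 CPM). The part of these values in the rearing differences was not tested.

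GR-Con and GR-KO animals gave 2 separate comparisons of DR with NR that share no library. In GR-Con 120 of 12077 genes were called (0.994%), 75 (0.621%) higher and 45 (0.373%) lower, and 31 (0.257%) were called by the quasi-likelihood test. In GR-KO 78 of 11409 were called (0.684%), 33 (0.289%) higher and 45 (0.394%) lower, and 1 (0.00877%) by the quasi-likelihood test. With sex of the library as a term the calls numbered 182 in GR-Con and 193 in GR-KO. The libraries of DR and NR did not overlap in 38.6% of genes tested in GR-Con and 42.3% in GR-KO. Both comparisons called 11 genes, 9.17% of the GR-Con calls and 14.1% of the GR-KO calls, and all 11 had the same sign. Among them were Igsf21, Sema5a, Sdk1, Gas7 and Zfp951 (higher in DR) and Sqle, Brinp3, 9630014M24Rik, Gm5820 and Gm20752 (lower in DR). Of the GR-Con calls that could be tested in GR-KO, 89 of 107 (83.2%) had the same sign there, and of the GR-KO calls 66 of 77 (85.7%) had the same sign in GR-Con, against 60.9% of all 11334 genes tested in both.

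The genes with the smallest p differed between the genotypes. In GR-Con, Prkd1, a diacylglycerol-activated kinase gene, was at 14.8 and 17.9 CPM in NR and 72.8 and 56.5 CPM in DR (log2 fold change 1.98, SE 0.21; edgeR adjusted p 8.9e-17), and Pde10a, a cyclic nucleotide phosphodiesterase gene, fell from 692 ± 12.8 to 313 ± 45.0 CPM (n = 2; -1.14, edgeR adjusted p 1.9e-10). Osbpl3 fell from 171 ± 13.1 to 54.9 ± 9.62 CPM (-1.64, edgeR adjusted p 2.4e-18), and Egfem1 (1.38) and Grik4 (1.04) rose. Also called higher in GR-Con were Epha6, an ephrin receptor gene (0.99), Htr2c (1.00), Cdh13 (1.16) and Parm1, from the L5PT marker list (1.01). Pcdh11x was called lower (-0.81). Earlier results of these data had shown 5 genes to shift with darkness in several excitatory types, so these genes are not independent. All 5 were called in GR-Con, beside 0.994% of all genes (Ptpru, St6galnac5 and Syt17 higher, Osbpl3 and Strip2 lower). Of 4 tested in GR-KO none was called, beside 0.684% of all genes. For several of the GR-Con genes NR GR-KO male lay within or above the DR range. It had 63.0 CPM of Prkd1 (other NR libraries 10.3 to 17.9), 269.9 CPM of Egfem1 (90.8 to 133) and 295 CPM of Htr2c (85.2 to 111), the last the highest of all 8 libraries. In GR-KO, Igsf21 again led (1.46, edgeR adjusted p 1.7e-06). Next in the higher direction were Pdzrn4 (0.84), Deptor, an inhibitor of mTOR from the L5IT marker list (1.19), and Hmga2 (0.85). Lower in DR were Gm32647 (-2.65), Nectin3, an adhesion gene (-1.35), Brinp3 (-0.88) and 9630014M24Rik (-0.83). A gene called in 1 genotype and not in the other was not thereby shown to differ. The test of that difference, the interaction, called none of these genes except Gm32647 and Hmga2, which are given with the genotype results.

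The number of rearing calls was 292 of 11981 genes in L5NP (2.44%) and varied among the excitatory types with the number of nuclei and with the test. With all nuclei the share of genes called was 16.3% in L2/3, 9.91% in L4, 4.72% in L5IT, 3.88% in L5PT, 6.8% in L6IT, 12.7% in L6 corticothalamic (L6CT) neurons and 0.47% in L6b, so that L6b lay below L5NP and the others above. When L5IT, L5PT and L6CT nuclei were subsampled in each library to the number of L5NP nuclei, 511 (4.05%), 326 (2.44%) and 783 (6.6%) genes passed. NR GR-KO female held 59 L5PT nuclei, fewer than its 99 L5NP nuclei, so all were kept there and L5PT was not fully matched. Depth was not matched. Over all nuclei its median was 22868 UMIs in L5IT, 29199 in L5PT and 17934 in L6CT, against 16464.5 in L5NP. The counts of 511, 326 and 783 became 109, 0 and 406 with the quasi-likelihood test, which called 107 in L5NP. The numbers were not compared by a test.

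The types come from the same 8 libraries, so their rearing values are not independent of those in L5NP and are given side by side. Of the 24 genes named in L5NP, the 12 per direction with the smallest p among genes called by both tests at an average log2 CPM of at least 4, those called in the same direction numbered 14 in L2/3, 12 in L4, 11 in L5IT, 9 in L5PT, 10 in L6IT, 14 in L6CT and 4 in L6b. None was called in the opposite direction. Igsf21 rose by 2.08 in L5IT (edgeR adjusted p 0.012) and Lypd1 by 1.19 in L2/3 (edgeR adjusted p 0.0017). Lypd1 had larger values that were not called, 2.05 in L4 and 1.27 in L5IT (edgeR adjusted p 0.18 and 0.36), and its difference between L5NP and L5IT was -0.18 (SE 0.53; quasi-likelihood test, adjusted p 0.98). The glutamate receptor genes called in L5NP also had positive changes in L5IT, L5PT and L6CT. Called were Grik4 (0.89), Grid1 (0.43) and Gria1 (0.41) in L5IT and Grik3 (0.79) and Grik5 (0.32) in L5PT. In L6CT they were Grid1 (0.70), Grik3 (0.59), Gria1 (0.46) and Grik5 (0.39). Egr1, Jund and Npas4 had negative changes in these types, and only that of Npas4 in L5PT (-1.15) was called.

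Sema5a, the guidance gene called higher in L5NP, had negative values in most other types. Its log2 changes were -0.85 in L5IT, -0.90 in L6IT, -0.47 in L5PT, -0.36 in L2/3 and 0.51 in L4, none of them called. The difference of the L5NP change from that in L5IT was 1.61 (SE 0.26; quasi-likelihood test with the library as a block, adjusted p 0.032), a call that 2 of 8 fits without a library kept, and that from L6CT was 0.85 (SE 0.15; adjusted p 0.015), which 7 of 8 kept. Against L5PT it was 1.34 and did not pass (adjusted p 0.083). Sqle fell by 1.25 in L5NP and had a log2 change of -0.10 in L6CT (difference -1.10, SE 0.15; quasi-likelihood test, adjusted p 0.0034), and Pcyt2 by 0.66 against a change of -0.16 (difference -0.48, adjusted p 0.018). Against L5IT and L5PT the differences of Sqle were -0.74 and -0.94 (quasi-likelihood adjusted p 0.22 and 0.30) and those of Pcyt2 were both -0.33, and none was called.

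**Figure D4:**
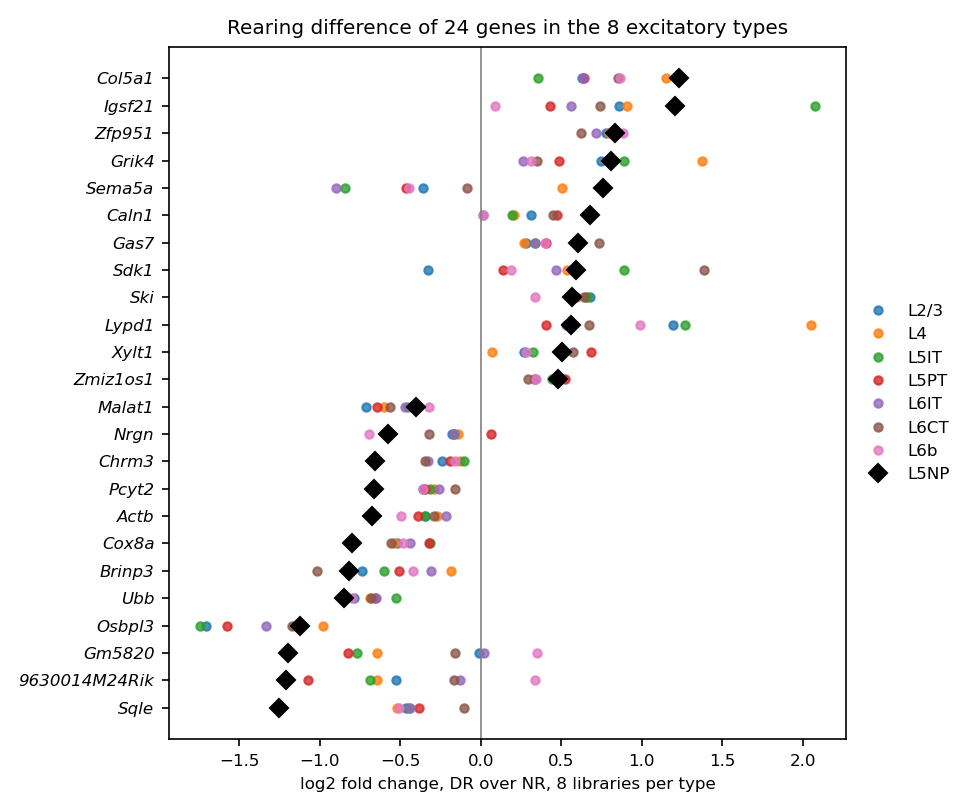
Log2 fold change of DR against NR for the 24 named rearing genes in 8 excitatory types, over 4 DR and 4 NR libraries each. Most rows keep 1 sign across types, whereas Sema5a is positive in L5NP (0.76) and L4 (0.51) and negative in the other types, from -0.90 in L6IT to -0.09 in L6CT.

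Tested over all genes, 15 of 13835 (0.108%) differed in rearing response between L5NP and L5IT, 0 of 13409 between L5NP and L5PT by the quasi-likelihood test (915 at an unadjusted p under 0.05, and 41 by the likelihood ratio test), and 170 of 15336 (1.11%) between L5NP and L6CT. The L5IT count ran from 0 to 260 when single libraries were left out, the latter without NR GR-KO male, and was 4 after subsampling to equal numbers of nuclei. The L6CT count was 63 after subsampling and ran from 29 without NR GR-Con male to 291 without DR GR-Con male. The named genes included some with the larger change in the other type and some with the larger change in L5NP. Abi3bp, an extracellular matrix gene, had a change of -1.49 in L6CT and 0.27 in L5NP (difference 1.80, SE 0.18; quasi-likelihood test, adjusted p 6.0e-04). Kcnj3, the GIRK1 potassium channel gene, changed by -1.10 in L6CT and -0.21 in L5NP, Rassf3 by -2.02 and 0.02, Inpp4b, a phosphoinositide phosphatase gene, by 2.28 and 0.28, and Sema5b, the paralogue of Sema5a, by 1.94 and 0.03. Against L5IT, Ptchd4 changed by -1.004 in L5IT and -0.08 in L5NP and Rasgrf2, a Ras activator gene, by 1.03 and 0.22. Slc24a3, a sodium-calcium exchanger gene, had the larger value in L5NP (0.82 against -0.28 in L5IT), as did, against L6CT, Sqle, Pcyt2, Sema5a, Igsf21 (1.21 against 0.74), 9630014M24Rik (-1.21 against -0.17) and Gm5820 (-1.20 against -0.16). The call of Igsf21 against L6CT (quasi-likelihood test, adjusted p 0.047) held in 2 of 8 fits without a library. That of Gm5820 held in 5, 9630014M24Rik in 6, Pcyt2 in 7 and Sqle in 8.

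Setting GR-KO beside GR-Con asks what a Cre vector aimed at GR in astrocytes changes in L5NP neurons. Few genes were called. In NR there were 9 calls of 11919 (0.0755%), 6 (0.0503%) of them higher in GR-KO and 3 (0.0252%) lower. The quasi-likelihood test kept 1 (0.00839%) and DESeq2 made 3 calls, while 445 genes had an unadjusted p under 0.05. With single libraries left out the count was 59 (NR GR-KO female), 36 (NR GR-KO male), 7 (NR GR-Con male) and 6 (NR GR-Con female). Gpc5, a glypican (a heparan sulphate proteoglycan of the cell surface), was at 13.6 and 17.4 CPM in GR-Con male and female and at 38.7 and 32.6 CPM in GR-KO male and female (log2 fold change 1.19, SE 0.21; edgeR adjusted p 4.8e-05; quasi-likelihood test, adjusted p 0.21). Both GR-KO libraries lay above both GR-Con libraries, and the groups did not overlap, in either direction, in 32.3% of all genes tested. Gpc5 was also called higher in L2/3, L4, L5IT and L6IT in NR and changed by 0.32 in DR L5NP nuclei (edgeR adjusted p 1.0). Tafa1, a secreted neuronal ligand, was at 150.4 and 105 CPM in GR-Con and 263 and 210.4 CPM in GR-KO (0.87, edgeR adjusted p 0.018), and its relative Tafa2 at 370.3 and 298 against 221 and 207 CPM (-0.66, edgeR adjusted p 0.046).

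Nxph2, a secreted neurexin ligand like Nxph1, was at 24.9 and 26.2 CPM in NR GR-Con and at 12.6 and 9.23 CPM in NR GR-KO (-1.20, SE 0.23; edgeR adjusted p 3.7e-04). The 4 DR libraries lay between these groups, at 13.0 to 18.5 CPM. Rxfp2, a relaxin-family peptide receptor gene, was higher in GR-KO (1.00, edgeR adjusted p 0.010). Gm49906, an unnamed gene model, fell from 36.2 and 35.9 to 12.8 and 14.5 CPM (-1.44, SE 0.20; edgeR adjusted p 2.3e-09), was the gene called by the quasi-likelihood test (adjusted p 0.034) and held in 4 of 4 fits without a library; DR libraries of either genotype had 10.6 to 21.4 CPM. The other 3 calls, Gm30382, Gm28494 and Gm32647, were gene models without a known role, with mean levels under 14 CPM.

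In DR there were 8 calls of 11873 (0.0674%), 6 (0.0505%) of them higher in GR-KO and 2 (0.0168%) lower. The quasi-likelihood test made 0 calls and DESeq2 made 2, and 488 genes had an unadjusted p under 0.05. The count was 45 without DR GR-Con female, 42 without DR GR-Con male, 22 without DR GR-KO male and 13 without DR GR-KO female, and 34 with sex as a term. Hmga2, the leading gene of the type, was at 48.6 and 50.4 CPM in GR-Con and 78.1 and 95.2 CPM in GR-KO (0.81, SE 0.17; edgeR adjusted p 0.0076). Pcsk1, a convertase that cleaves neuropeptide precursors, was at 44.7 and 46.1 against 74.5 and 76.1 CPM (0.73, edgeR adjusted p 0.012), and Adgrd1, an adhesion G-protein-coupled receptor gene, rose by 0.92. Npsr1, the neuropeptide S receptor, was at 8.29 and 9.26 against 21.7 and 47.9 CPM (2.00, edgeR adjusted p 9.6e-05). The female GR-KO library was the highest of its comparison in NR too, at 49.0 CPM against 5.72 CPM in the male. Synpr, the synaptic vesicle protein synaptoporin, was at 7.83 and 7.59 CPM in GR-Con and 1.58 and 0.648 CPM in GR-KO (-2.81, SE 0.50; edgeR adjusted p 1.6e-04), the GR-KO values resting on a few UMIs, and Nim1k, a kinase gene, fell by 0.75. Non-overlapping libraries occurred in 32.6% of all genes tested.

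Over both rearings 2 of 11981 genes (0.0167%) were called, among them Gm42418 (0.56), both with overlap between the genotypes (no overlap occurred in 2.21% of genes tested) and neither called by the quasi-likelihood test. Gm42418 is a gene model overlapping ribosomal RNA sequence. The summed oligodendrocyte markers were at 34.6 to 56.8 CPM in GR-Con and 50.5 to 74.6 CPM in GR-KO. Those of inhibitory neurons were, in males and females, at 18.5 and 14.7 CPM in NR GR-Con and 22.9 and 22.4 CPM in NR GR-KO. In DR they were at 9.22 and 9.81 against 10.3 and 13.3 CPM. All 5 inhibitory markers tested in NR had positive changes (median 0.51), and none was called. The part of RNA from other cells, among them oligodendrocytes, inhibitory neurons and astrocytes, in the genotype values, that of Gpc5 included, was not tested. None of the 8 immediate early factors, 15 ionotropic glutamate receptor genes or 3 axonal genes tested was called for genotype in NR or in DR. In NR 5 of the 8 immediate early factors had an unadjusted p under 0.05, beside 445 of 11919 genes, with a median log2 change of 0.47, and in DR none did, with a median of 0.37. As given above, NR GR-KO male had the highest value in 6 of these factors. Epha3, Gap43 and Robo1 had changes of 0.26, 0.44 and 0.19 in NR, that of Gap43 at an unadjusted p under 0.05, and of 0.09, 0.00059 and 0.02 in DR. Earlier results of these data had shown 4 genes to shift with genotype in several excitatory types, so these genes are not independent. In each rearing 3 of them could be tested. Gpc5 was called in NR, beside 0.0755% of all genes, and none in DR, beside 0.0674%.

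**Figure D5:**
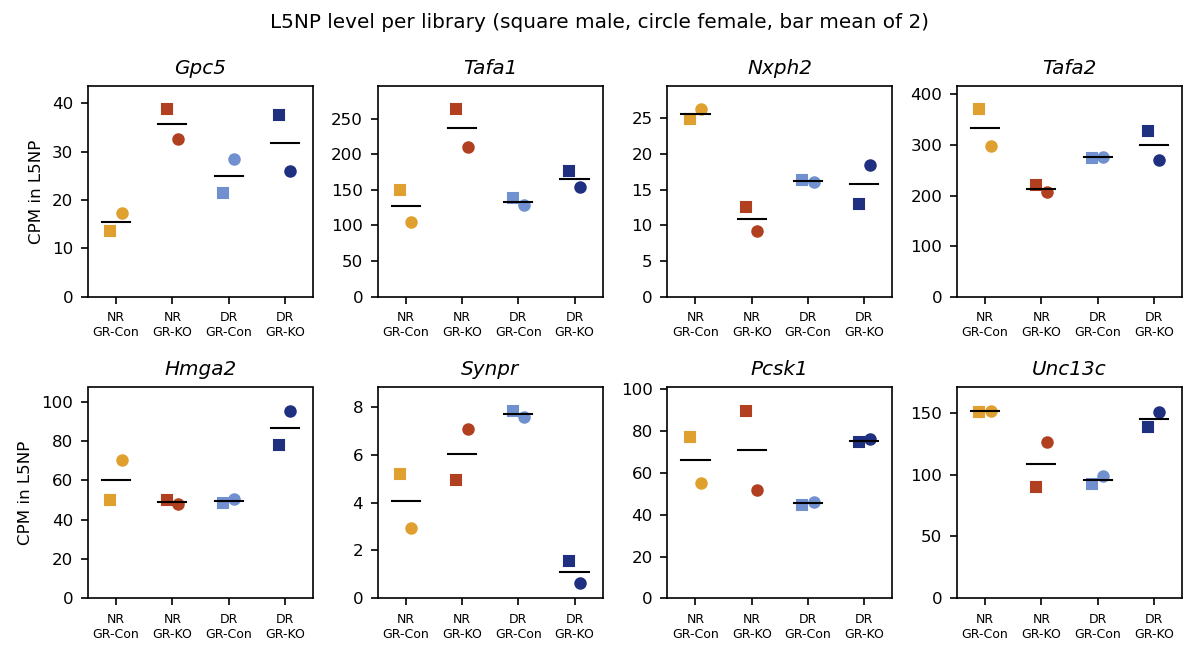
Level (CPM) of 8 genes named for genotype or for its interaction with rearing in each of the 8 L5NP libraries. Gpc5 and Tafa1 were higher and Nxph2 and Tafa2 lower in GR-KO in NR, Hmga2 and Pcsk1 were higher and Synpr lower in GR-KO in DR, and Unc13c differed in opposite directions.

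The interaction asks whether the genotype difference in NR departs from that in DR. It called 6 of 12337 genes (0.0486%), none by the quasi-likelihood test or DESeq2. Unc13c, a synaptic vesicle priming factor, was at 151 and 152 CPM in NR GR-Con, 90.2 and 126 CPM in NR GR-KO, 92.6 and 98.9 CPM in DR GR-Con and 139 and 151 CPM in DR GR-KO, so that GR-KO lay below GR-Con in NR and above it in DR (interaction -1.12 on the log2 scale, SE 0.24; edgeR adjusted p 0.016). Hmga2 had an interaction of -1.14 (edgeR adjusted p 0.049) and Synpr of 3.30 (edgeR adjusted p 0.0041). Gm32647, Gm28494 and Lpar1, a lysophosphatidic acid receptor gene, were the other calls. Lpar1 was at 0.868 and 0 CPM in NR GR-Con and at 0.972 to 5.18 CPM in the other libraries, too few counts for a fold change. Of the 6 interactions, the calls of Unc13c, Hmga2 and Gm28494 held in 2 of 8 fits without a library, that of Lpar1 in 3, and those of Synpr and Gm32647 in 6.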

How the data were processed

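The deposited matrix holds raw UMI counts per gene and nucleus, which the authors made from droplet libraries of DRAQ5-positive, GFP-negative sorted nuclei of microdissected V1; the submitters' processing notes name Cell Ranger 8.0.1, Seurat 5.3.0 and the mm10 build. The authors removed nuclei with outlying gene numbers and predicted doublets (DoubletFinder) and assigned cell types. Their cell table, also deposited by the authors, gives the percent of mitochondrial UMIs per nucleus, library, rearing, vector and type. Column sums of the matrix equalled the table's UMI numbers for all 102330 nuclei.

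UMI counts of L5NP nuclei were summed per library, the unit of replication, and fitted in edgeR 4.0.16 (R 4.3.3): filterByExpr (minimum count 10), TMM, estimateDisp, glmFit and the likelihood ratio test, two-sided, which the study used. P-values were adjusted by Benjamini-Hochberg over all genes tested and called at 0.05. The SE was taken as |log2 fold change| over the root of the likelihood ratio statistic. The quasi-likelihood test (main test between cell types, with the library as a block) and DESeq2 1.42.0 were alternatives. Scripts were tested on simulated data, in which the likelihood ratio test gave more false calls than the threshold allows, the quasi-likelihood test fewer than that but still above it, and DESeq2 fewer than the threshold, with fewer changed genes found. P-values rest on dispersions estimated from these libraries with information shared across genes, so they do not measure the spread of each gene alone. Coordinates came from the GENCODE annotation of GRCm38 by symbol (26006 features matched 1 gene); Tafa1, Tafa2, Gm49906, Gm5820 and 9630014M24Rik had no match.

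Genes were named by rule: all NR genotype calls; 12 rearing genes per direction; 4 per direction in the other comparisons within L5NP; 5 per direction between types; the 15 leading genes; and called list members. The members and the lists (immediate early factors, effectors, axonal and guidance genes, glutamate and GABA-A receptors, channels, neuromodulator receptors, adhesion, cadherins, GR targets, shifted genes, cell type markers) were chosen with earlier results of these data known. The values of a few genes are not reported here.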

Additional observations from a re-analysis of the deposited data

Results flagged for a closer look

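In 8 cases a value stood apart from the other 3 libraries of their rearing group among 96 groups of 4 checked, where chance alone flags about 1 in 20. In NR they were 74.4 CPM of Caln1 and 160.5 CPM of Grik4, both high and both in NR GR-KO male, 292 CPM of Gria1 in NR GR-KO female (low), 82.7 CPM of Grik5 (high) and 67.5 CPM of Nrgn (low) in NR GR-Con female, and 29.8 CPM of Strip2 in NR GR-Con male (high). In DR they were 132 CPM of Igsf21 and 156 CPM of Zmiz1os1, both high and both in DR GR-KO male.

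The genotype difference in NR departed from that in DR for 6 genes by the likelihood ratio test of edgeR. The difference of log2 changes was 2.86 for Gm32647, 3.30 for Synpr, 4.33 for Lpar1 and 3.84 for Gm28494, and it was -1.12 for Unc13c and -1.14 for Hmga2. The values of Lpar1, Gm28494, Synpr and Gm32647 rest on a few UMIs in the lowest group and are no measure of size.

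The rearing difference of L5NP departed from that of another type in the same libraries for 26 named pairs of gene and type. Against L5IT the difference of log2 changes was 0.65 for Rph3a, 0.97 for Ptchd4, 0.64 for Gm11906, 1.10 for Slc24a3, 1.55 for Mei1 and 1.61 for Sema5a, and it was -1.67 for Gm28836, -0.78 for Rasgrf2, -0.79 for Zbtb20, -1.23 for Gm30382 and -0.98 for Gm19410. Against L6CT it was 1.80 for Abi3bp, 0.93 for Kcnj3, 1.51 for Ltbp1, 0.68 for Hecw2, 1.97 for Rassf3, 0.85 for Sema5a and 0.46 for Igsf21. In the other direction it was -1.09 for Zfp462, -1.96 for Inpp4b, -1.10 for Sqle, -0.77 for Coro1c, -1.80 for Sema5b, -1.04 for 9630014M24Rik, -1.05 for Gm5820 and -0.48 for Pcyt2.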

How the results depend on the processing

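No paired analysis was possible because the library names carry no replicate number; they carry sex, with 1 male and 1 female library per group, which was fitted as a term. Of the named genes under all alternatives, 1502 results kept their side of the threshold, 467 kept the direction but were no longer called, and 0 reversed. Numbers of calls depended strongly on the test and on single libraries, and the cause was not tested except where fewer nuclei or libraries entered. By the quasi-likelihood test the calls numbered 1 (genotype in NR), 0 (genotype in DR), 31 (rearing in GR-Con), 1 (rearing in GR-KO), 107 (rearing over both genotypes), 0 (genotype over both rearings) and 0 (interaction); by DESeq2 they numbered 3, 2, 36, 19 and 127 for the first 5 of these and 0 for the interaction. With sex as a term they were 32, 34, 182, 193 and 420 for the first 5, 4 for genotype over both rearings and 11 for the interaction. Subsampling nuclei to the smallest library gave 2 (genotype in NR), 37 and 28 (rearing in GR-Con and GR-KO), 113 (rearing over both), 1 (genotype over both) and 1 (interaction). One fit of 4 groups gave 5 and 2 for genotype in NR and DR and 59 for rearing in GR-Con. Without the filter on low counts there were 5 (genotype in NR), 51 (rearing in GR-KO) and 1 (genotype over both). Leaving out nuclei with an eGFP or Cre UMI gave 5 (genotype in DR), 4 (genotype over both) and 10 (interaction), and leaving out X and Y gave 4 and 11 for the last 2. Thinning of UMIs, chosen after seeing the data, gave 77 for rearing in GR-Con, and a term for the 3 libraries poor in microglia, also chosen then, gave 9 for genotype over both rearings. Between types the likelihood ratio test gave 87 (L5IT), 41 (L5PT) and 364 (L6CT), and subsampling 4 and 63 for L5IT and L6CT.

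Leaving out each library in turn gave 6 to 59 calls (genotype in NR), 13 to 45 (genotype in DR), 52 to 169 (rearing in GR-Con), 26 to 197 (rearing in GR-KO), 114 to 291 (rearing over both), 1 to 8 (genotype over both), 1 to 14 (interaction), 0 to 260 (L5IT), 0 to 1 (L5PT) and 29 to 291 (L6CT). The share of nuclei, at a log2 ratio of -0.00074 between DR and NR, was 0.0501 with excitatory nuclei as the total, 0.0054 with sex as a term and -0.15 to 0.18 without single libraries; for genotype it was -0.42 to -0.08. Depth limits rare genes most: at 2535604 UMIs in the smallest library 1 CPM is under 3 counts.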
